A study of Rattus norvegicus with 9 samples.

Results

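The genes described here are the regulators of the cell cycle: the cyclins, the cyclin-dependent kinases (CDKs), their inhibitors, and the checkpoint and ubiquitin ligase components that act on them. They were taken from the KEGG annotation of the deposited table as the genes of the cell cycle pathway, leaving out those that the table also places in a KEGG DNA replication or repair pathway and the replication licensing factors. Of 122 cell cycle genes, 14 were left out by this rule, so 108 of the 20645 genes of the table remained, of which 98 were expressed highly enough to be tested. RNA-seq was carried out on INS-1E cells, a clonal insulin-secreting line from a rat insulinoma. The cells were treated for 24 h with fatty acid-free bovine serum albumin (BSA, the control), with 0.5 mM palmitic acid (PA), a saturated fatty acid that is toxic to beta cells at high concentration, or with 0.5 mM PA and 50 µM cyanidin-3-O-glucoside (C3G), an anthocyanin pigment of berries. There were 3 libraries per group, and none of these groups received C3G without PA. No label says whether the libraries of a group came from separate cultures, so the p-values measure only the spread between these samples.

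Progress through the cell cycle depends on CDKs, which are active only when bound to a cyclin. D-type cyclins with CDK4 or CDK6, then E-type cyclins with CDK2, phosphorylate the retinoblastoma (RB) family, which releases the E2F transcription factors and with them the genes of DNA synthesis. Cyclin A carries the cell through S phase, and cyclin B with CDK1 drives mitosis, until the anaphase-promoting complex (APC/C) marks cyclin B and securin for destruction. Adult beta cells divide rarely, and in rodents they depend on cyclin D2 and CDK4, whereas insulinoma lines divide continuously.

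Library totals ranged from 45559993 to 66730721 estimated counts. Markers of beta cells were present in every library, with a summed level of 49514 to 50251 FPKM (mapped fragments scaled by the length of the gene and by library depth) for 13 genes with BSA, 22643 to 23185 FPKM with PA and 47147 to 52826 FPKM with PA + C3G. With PA 10 of these 13 genes fell, where 25.2% of all tested genes did, and 12 of 13 were higher with PA + C3G than with PA, where 11.1% of all tested genes were. The part of this shift in the results below was not tested. Markers of acinar cells summed to at most 0.629 FPKM in any library, and those of stromal and immune cells to at most 0.730 FPKM. Of 4 markers of other islet endocrine cells, only Gcg (glucagon) was expressed highly enough to be tested. It was at 31.2, 8.28 and 22.1 FPKM with BSA, 6.02, 1.35 and 3.35 with PA and 22.5, 4.17 and 13.2 with PA + C3G, which overlapped PA and BSA. Like most of the regulators it fell with PA (log2 fold change −2.50, SE 0.713, adjusted p = 0.0149), and its difference between C3G and PA did not pass the test (log2 fold change 1.93, SE 0.701, adjusted p = 0.0814). Its part in the results was not tested. The 3 ductal markers summed to 83.5 to 152 FPKM over all libraries, most of it from Krt7 at 80.8 to 149 FPKM. Krt7 did not pass the test with PA (log2 fold change 0.12, SE 0.198, adjusted p = 0.644) or for C3G against PA (log2 fold change 0.41, SE 0.198, adjusted p = 0.18). Sox9, at 2.52 to 5.86 FPKM, rose with PA (log2 fold change 0.94, SE 0.129, adjusted p = 2.09e-04). It was lower with C3G than with PA (log2 fold change −0.47, SE 0.128, adjusted p = 0.0281). Krt19 was at 0 with BSA and with PA + C3G and at most at 0.177 FPKM with PA.

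Palmitic acid lowered most of the regulators. Against BSA, 63 of the 98 tested genes fell and 7 rose at an adjusted p under 0.05 (edgeR's quasi-likelihood test with Benjamini-Hochberg adjustment over all tested genes), where 25.2% of all 12958 tested genes fell and 25.8% rose. The median log2 fold change was −0.40 for the cell cycle regulators and 0.00 for all genes tested. At a fold change above 2 with an unadjusted p under 0.05, 21 regulators fell and 2 rose, against 4.26% and 3.3% of all genes. The BSA and PA libraries did not overlap in normalized counts for 74 regulators, against 60.1% of all genes. Because these are bulk RNA libraries, fewer cells in a given phase of the cycle and less RNA per cell cannot be told apart.

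Fewer of them passed the test when C3G was added. Against PA alone, 19 regulators were higher and 8 were lower with PA + C3G, where 11.1% of all genes were higher and 10.2% lower, and the median was 0.04 (−0.00 over all genes). This split depended on the scaling between libraries: with every library set to the same FPKM sum, 8 were higher and 18 lower, against 5.97% and 19.7% of all genes, and the median was −0.05. The 8 genes called higher under both scalings were Tgfb2, Necab3 (a row of uncertain identity, described below), Ttk, Ccne1, Orc6, Hdac1, Cdc7 and Ywhab. All 8 genes lower under the main scaling were also lower under the other. Without PA replicate 3, the calls of this comparison fell from 27 to 15. At a fold change above 2, only Tgfb2 was higher and none was lower (0.702% and 0.432% of all genes), and the libraries of the compared groups did not overlap for 44 regulators (38.7% of all genes). Against BSA, cells given PA + C3G had 60 regulators lower and 6 higher (17.9% and 19% of all genes), with a median of −0.28 (0.01 over all genes). At a fold change above 2, 18 were lower and 2 higher (2.77% and 1.86% of all genes), and 70 had separate groups (49.4% of all genes). The 3 comparisons share libraries, so their counts are not independent of each other.

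**Figure D1:**
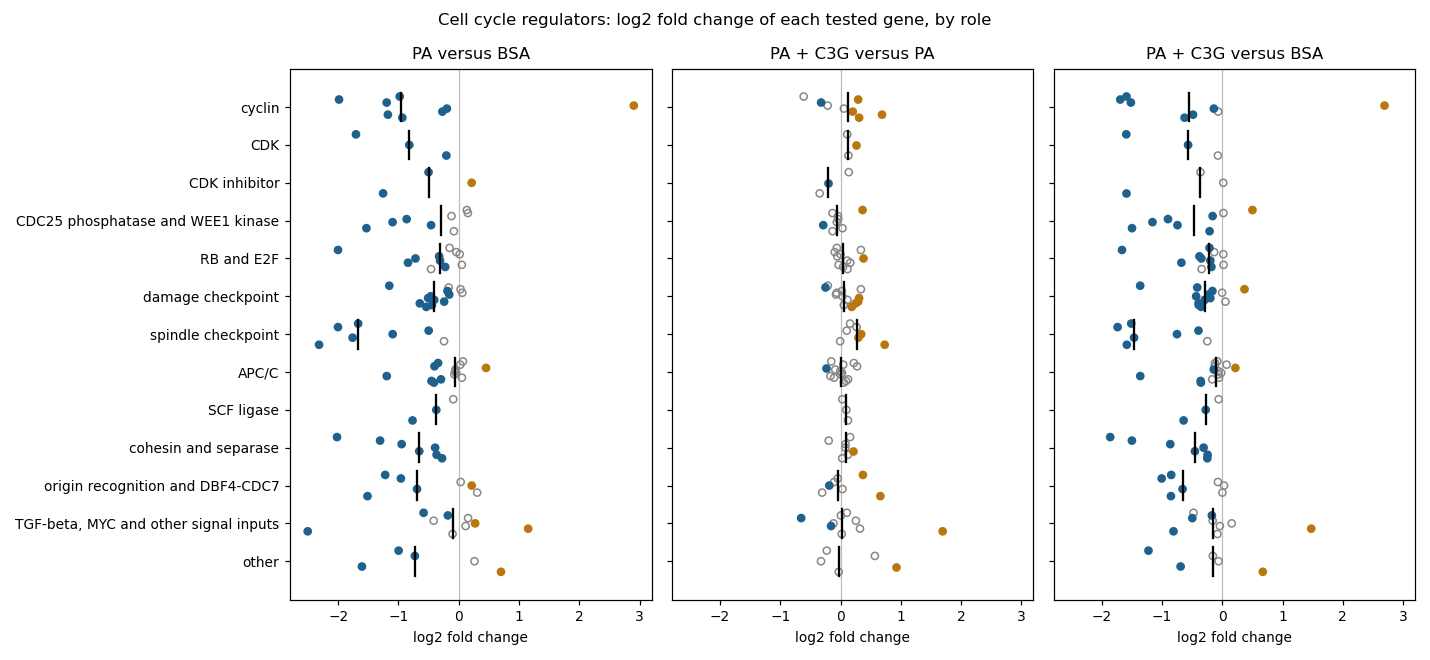
Log2 fold change (x axis) of each tested cell cycle regulator, grouped by role (y axis), in the 3 comparisons. Filled points passed an adjusted p of 0.05 (orange higher, blue lower), open points did not, and the black bar is the median of the role. With PA the spindle checkpoint genes had the lowest median, −1.67, and Ccnd1 lay apart from all other genes at 2.91.

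Many genes of G2 and mitosis carry a CHR element (TTTGAA or TTCGAA) and CCAAT boxes just before their start, and G1/S genes an E2F site. Promoter sequences from RefSeq (rat build GRCr8) were available for 76 of the 98 tested regulators. In the 250 bases before the start, on either strand, 23.7% of these held a CHR element, 51.3% a CCAAT box and 15.8% an E2F site (TTTGGCGC, TTTCGCGC, TTTCCCGC or TTCCCGCC, of which the last 2 can overlap). The shares among the 8999 tested genes with a promoter sequence were 12.4%, 37% and 5.61%. Among the 48 regulators lower with PA that had a sequence, 25% held a CHR element, 52.1% a CCAAT box and 12.5% an E2F site, and among the other 28 regulators the shares were 21.4%, 50% and 21.4%. Of the 19 regulators higher with PA + C3G than with PA, 16 had a sequence, of which 2 (12.5%) held a CHR element, 9 (56.2%) a CCAAT box and none an E2F site by these letters. A match is a description of the letters and not of binding.

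To show these elements, the 250 bases before the start are given for Cdk1, Cdc20, Pttg1 and Ccnb1, mitotic genes that all fell with PA, and for Rbl1, a G1/S gene that fell less. They run from 5′ to 3′ toward the start, with the matched letters in capitals. Cdk1 lies at chr20:19265043-19265292, plus strand, Cdc20 at chr5:137255800-137256049, minus strand, Pttg1 at chr10:28406327-28406576, minus strand, Ccnb1 at chr2:33655226-33655475, minus strand, and Rbl1 at chr3:166289377-166289626, minus strand.
Cdk1: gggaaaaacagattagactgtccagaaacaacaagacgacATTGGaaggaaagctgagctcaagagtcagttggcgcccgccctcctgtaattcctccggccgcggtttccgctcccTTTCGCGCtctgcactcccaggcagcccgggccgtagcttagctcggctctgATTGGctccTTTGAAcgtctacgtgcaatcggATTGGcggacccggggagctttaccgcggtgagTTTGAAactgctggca
Cdc20: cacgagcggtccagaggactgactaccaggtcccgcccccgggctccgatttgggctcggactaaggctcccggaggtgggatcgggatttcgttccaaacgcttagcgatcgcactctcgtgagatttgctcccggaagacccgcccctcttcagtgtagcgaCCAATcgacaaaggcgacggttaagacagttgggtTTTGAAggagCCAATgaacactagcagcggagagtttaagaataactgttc
Pttg1: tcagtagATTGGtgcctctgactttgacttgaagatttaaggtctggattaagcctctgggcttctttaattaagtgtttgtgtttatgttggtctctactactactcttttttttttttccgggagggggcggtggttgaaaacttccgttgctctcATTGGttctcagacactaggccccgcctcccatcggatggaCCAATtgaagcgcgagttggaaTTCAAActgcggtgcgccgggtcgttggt
Ccnb1: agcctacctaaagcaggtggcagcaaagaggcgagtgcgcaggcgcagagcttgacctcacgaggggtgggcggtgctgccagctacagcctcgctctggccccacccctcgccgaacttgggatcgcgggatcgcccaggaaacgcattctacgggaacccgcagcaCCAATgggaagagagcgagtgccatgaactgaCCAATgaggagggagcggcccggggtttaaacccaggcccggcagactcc
Rbl1: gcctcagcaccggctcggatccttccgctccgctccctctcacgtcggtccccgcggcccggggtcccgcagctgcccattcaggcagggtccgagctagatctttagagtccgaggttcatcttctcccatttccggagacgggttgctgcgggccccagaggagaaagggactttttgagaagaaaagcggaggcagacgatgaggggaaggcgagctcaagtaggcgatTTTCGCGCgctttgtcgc

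The CHR element of Cdk1 nearest to the start begins 16 bases before it, that of Cdc20 51 bases and that of Pttg1 29 bases before it. Cdk1, with 3 CCAAT boxes, also held an E2F match 133 bases before its start. Ccnb1 held 2 CCAAT boxes, at 82 and 50 bases, and no CHR letters in this window. The E2F match of Rbl1 begins 18 bases before its start.

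Among the signals that feed into the cycle, the TGF-beta ligands Tgfb1 and Tgfb2 went opposite ways with PA. Transforming growth factor beta restrains the growth of many epithelial cells. Tgfb1 (chr1:82480195-82497199 in the table's own coordinates, whose build is not given in the sources used here) was at 2.6, 2.81 and 2.65 FPKM in BSA replicates 1 to 3, 6.39, 5.12 and 6.13 with PA and 6.38, 7.67 and 7.46 with PA + C3G. It was higher in every PA library than in every BSA library (log2 fold change 1.15, SE 0.115, adjusted p = 2.48e-05). The PA and PA + C3G libraries overlapped in FPKM, and their difference missed the threshold (log2 fold change 0.32, SE 0.113, adjusted p = 0.0717). Tgfb2 (chr13:105039853-105141030) fell from 9.79, 8.8 and 11.1 FPKM with BSA to 1.53, 1.94 and 1.65 with PA (log2 fold change −2.51, SE 0.155, adjusted p = 1.02e-06). With PA + C3G it stood at 4.34, 5.6 and 6.3 FPKM, above every PA library and below every BSA library (log2 fold change 1.70, SE 0.152, adjusted p = 1.80e-04 against PA, and log2 fold change −0.81, SE 0.147, adjusted p = 0.00199 against BSA). This was the largest increase with C3G among the tested regulators.

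Myc, the transcription factor that promotes growth and cell cycle entry, showed a different order. Its level (chr7:102586313-102591240) was 37.4, 43 and 38.8 FPKM with BSA, 44, 41.5 and 44.9 with PA and 29.2, 25.5 and 26.2 with PA + C3G. BSA and PA libraries overlapped (log2 fold change 0.16, SE 0.0669, adjusted p = 0.0788), whereas all 3 PA + C3G libraries lay below the other 6 (log2 fold change −0.65, SE 0.0674, adjusted p = 3.29e-04 against PA, log2 fold change −0.50, SE 0.0673, adjusted p = 3.31e-04 against BSA). Of the SMAD proteins that relay TGF-beta signals, Smad3 rose slightly with PA (log2 fold change 0.27, SE 0.0926, adjusted p = 0.0326), Smad4 was slightly lower with C3G than with PA (log2 fold change −0.16, SE 0.0459, adjusted p = 0.0379), and these calls were lost in 8 and 7 alternative analyses. Abl1, a tyrosine kinase, was called lower with PA (log2 fold change −0.58, SE 0.215, adjusted p = 0.0455), but 13 of 19 alternatives lost the call. Abl1 and the row LOC100909750, an ABL1-like copy, moved against each other in 1 BSA library: in BSA replicate 3 Abl1 stood at 31.6 FPKM and the copy at 2.85 FPKM, where both were at 16.1 to 17.4 FPKM in the other BSA libraries. The sum of the pair was 33.8 ± 1.41 FPKM with BSA, 28.5 ± 1.68 with PA and 26.0 ± 4.91 with PA + C3G (SD, n = 3). Gsk3b, a kinase that marks cyclin D1 for export and degradation, was lower with PA (log2 fold change −0.18, SE 0.0576, adjusted p = 0.0253), a call that was lost under the other scaling.

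**Figure D2:**
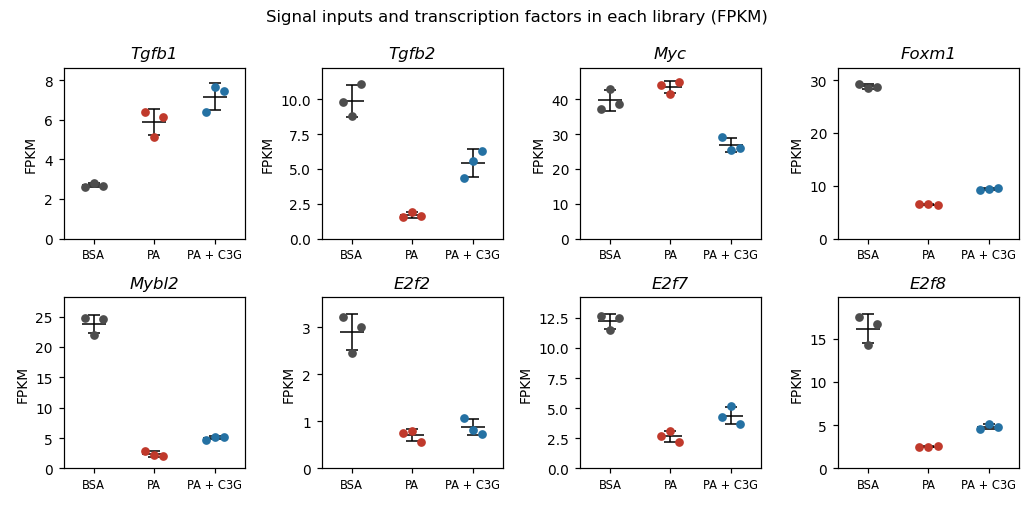
FPKM (y axis) of signal inputs and transcription factors in each library, by group (x axis), with the mean and SD of 3 libraries in black. Tgfb2, Foxm1, Mybl2, E2f7 and E2f8 stood lowest with PA and between PA and BSA with PA + C3G, Tgfb1 stayed high with C3G, and Myc was lowest with PA + C3G.

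All 8 tested cyclins changed with PA, 7 of them downward, where 25.2% of all tested genes fell and 25.8% rose. The exception was Ccnd1 (chr1:218090750-218100325), which encodes cyclin D1 and was close to silent with BSA at 0.246, 0.418 and 0.388 FPKM. It reached 2.55, 2.66 and 2.56 FPKM with PA and 2.44, 1.99 and 2.09 FPKM with PA + C3G, so every treated library lay above every BSA library (log2 fold change 2.91, SE 0.199, adjusted p = 1.95e-06 for PA against BSA). The difference between PA + C3G and PA did not pass the test (log2 fold change −0.21, SE 0.182, adjusted p = 0.457), although the FPKM values did not overlap. Ccnd1 passed the expression limit only through the treated libraries. Even so, Ccnd1 remained a minor D-type transcript. Cyclin D2, from Ccnd2 (chr4:159674885-159697207), was at 168, 162 and 167 FPKM with BSA, 145, 146 and 136 with PA and 140.0, 148 and 145 with PA + C3G, and thus far above cyclin D1 on this per-length scale in every library. Its fall with PA was small (log2 fold change −0.20, SE 0.0404, adjusted p = 0.00266), and PA + C3G libraries overlapped the PA libraries (log2 fold change 0.06, SE 0.0404, adjusted p = 0.368). Ccnd3 fell with PA (log2 fold change −0.27, SE 0.0474, adjusted p = 0.001) and was higher with C3G than with PA (log2 fold change 0.20, SE 0.0474, adjusted p = 0.0151), a call that was lost under the other scaling.

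The E-type cyclins, which start S phase, fell with PA and were higher with PA + C3G than with PA alone. Ccne1 (chr1:94485832-94494980) was at 17.6, 15.9 and 15.2 FPKM with BSA, 8.4, 5.49 and 7.32 with PA and 11.5, 9.61 and 12.2 with PA + C3G. The 3 groups did not overlap. It fell with PA (log2 fold change −1.18, SE 0.15, adjusted p = 1.31e-04). With PA + C3G it was higher than with PA (log2 fold change 0.69, SE 0.15, adjusted p = 0.0111) and still below BSA (log2 fold change −0.49, SE 0.148, adjusted p = 0.0283). The call against BSA was lost in 4 of 19 alternatives. Ccne2 took 19.1, 18.8 and 19.9 FPKM with BSA, 9.71, 10.6 and 9.44 with PA and 10.9, 12.9 and 12.1 with PA + C3G, also without overlap (log2 fold change −0.94, SE 0.0715, adjusted p = 4.06e-06 for PA against BSA). Its increase with C3G (log2 fold change 0.31, SE 0.0713, adjusted p = 0.0142) did not pass under the other scaling, nor without PA replicate 3.

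Cyclin A2 and cyclin B1 took opposite directions with C3G. Ccna2 (chr2:123275881-123282214), needed for S phase and entry into mitosis, went from 44.9, 37.9 and 42.1 FPKM with BSA to 10.9, 9.97 and 10.1 with PA, the steepest fall among the cyclins (log2 fold change −1.99, SE 0.072, adjusted p = 4.92e-08). At 11.8, 12 and 13.2 FPKM with PA + C3G it was slightly higher than with PA (log2 fold change 0.29, SE 0.0706, adjusted p = 0.0171), a call lost under the other scaling and without PA replicate 2, PA replicate 3 or PA + C3G replicate 3. Ccnb1 (chr2:30783915-30791221), the mitotic cyclin, went from 46, 44.7 and 48.2 FPKM with BSA to 21, 18.7 and 19.98 with PA (log2 fold change −1.20, SE 0.0766, adjusted p = 1.28e-06), and with PA + C3G was lower again at 16.6, 13.7 and 16.3 FPKM. All 3 of these libraries lay below all PA libraries (log2 fold change −0.32, SE 0.0766, adjusted p = 0.0162), and without PA replicate 1 the adjusted p was 0.0509. Ccna1, a cyclin best known from the testis, fell with PA (log2 fold change −0.98, SE 0.197, adjusted p = 0.00237), and its further decrease with C3G did not pass the test (log2 fold change −0.61, SE 0.198, adjusted p = 0.0554).

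The ratio of each cyclin to Ccnb1 in the same library does not depend on how libraries are scaled. This measure was chosen after the values had been seen, and 3 libraries against 3 cannot give an exact permutation p below 0.1. The Ccne1 to Ccnb1 ratio was 0.351 ± 0.034 with BSA, 0.354 ± 0.055 with PA and 0.716 ± 0.029 with PA + C3G (SD, n = 3). It was thus 2.02-fold higher with C3G than with PA (1.87 to 2.17-fold when any 1 library was left out, two-sided exact permutation p = 0.1), while the BSA and PA libraries overlapped (exact p = 1). The Ccna2 to Ccnb1 ratio was 0.899 ± 0.068 with BSA, 0.520 ± 0.014 with PA and 0.801 ± 0.082 with PA + C3G, with no overlap between PA and either other group (exact permutation p = 0.1 for both). All 7 ratios share their denominator, and Ccnb1 was itself lower with C3G than with PA (log2 fold change −0.32, SE 0.0766, adjusted p = 0.0162), so the ratios are not independent of each other. The Ccnd2 ratio, for example, was 1.31-fold higher with C3G than with PA, although the level of Ccnd2 did not pass the test (log2 fold change 0.06, SE 0.0404, adjusted p = 0.368). Of the 7 ratios, 5 did not overlap between PA + C3G and PA, and 5 did not overlap between PA and BSA. Ccnb1 itself fell without overlap in both comparisons, and the share of all genes with a separate ratio was not computed. These counts are therefore no result about the cyclins.

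**Figure D3:**
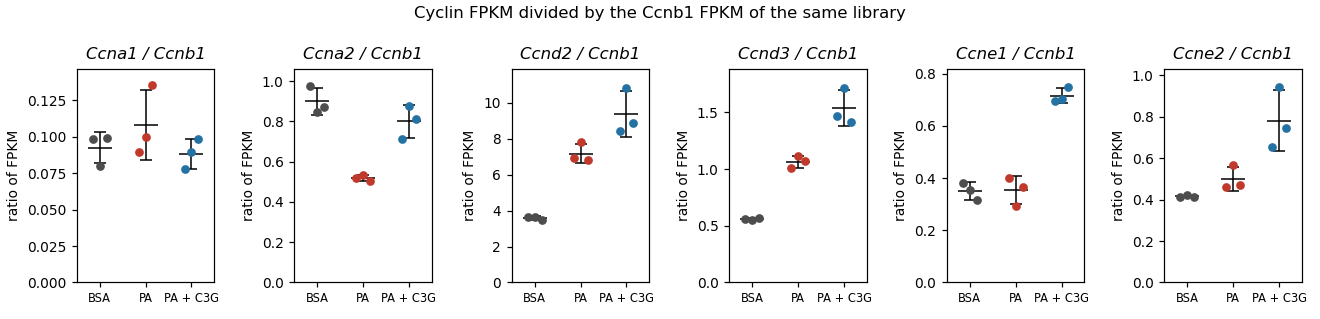
FPKM of 6 cyclins divided by the FPKM of Ccnb1 in the same library (y axis, no unit), by group (x axis), with mean and SD of 3 libraries in black; Ccnd1, with a ratio near 0 with BSA, is not drawn. The Ccne1 ratio was alike with BSA and PA and 2.02-fold higher with PA + C3G than with PA.

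All 3 tested kinases that these cyclins activate fell with PA, where 25.2% of all tested genes did. Cdk4, the G1 kinase, was at 188, 188 and 189.7 FPKM with BSA, 166, 162 and 154 with PA and 180.3, 166 and 169 with PA + C3G, a small fall with PA (log2 fold change −0.20, SE 0.0439, adjusted p = 0.00336) and a difference with C3G that missed the threshold (log2 fold change 0.13, SE 0.0439, adjusted p = 0.0618). Cdk2, the partner of cyclins E and A, stood at 20.03, 19.7 and 19.8 FPKM, 11.2, 10.2 and 11.7 and 13.1, 12.7 and 12.7 in the same groups, with no overlap. It fell with PA (log2 fold change −0.82, SE 0.0605, adjusted p = 3.23e-06), and its increase with C3G (log2 fold change 0.25, SE 0.0604, adjusted p = 0.0164) was lost under the other scaling. Cdk1 (chr20:20576377-20591509), the mitotic kinase whose promoter is printed above, fell from 77.9, 67.5 and 79.9 FPKM with BSA to 23.7, 17.9 and 26.4 with PA (log2 fold change −1.70, SE 0.129, adjusted p = 3.93e-06). With PA + C3G it was at 26.2, 22.3 and 23.1 FPKM, within the range of the PA libraries (log2 fold change 0.11, SE 0.128, adjusted p = 0.591). Cdk6 was under the expression limit, with 19 to 88 estimated counts per library.

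CDK inhibitors did not rise together. Cdkn1b, which encodes p27 and is the most abundant of them here, rose from 100.4, 100.2 and 105 FPKM with BSA to 115, 117 and 116 with PA (log2 fold change 0.22, SE 0.0352, adjusted p = 6.56e-04). With PA + C3G it was at 97.8, 101 and 96.6 FPKM, below all PA libraries (log2 fold change −0.20, SE 0.0352, adjusted p = 0.0043) and overlapping BSA (log2 fold change 0.02, SE 0.0352, adjusted p = 0.765). Cdkn1a (p21), an inhibitor induced by DNA damage, took the opposite direction with PA, from 21.4, 16.9 and 18.2 FPKM with BSA to 14.3, 10.8 and 14.1 with PA (log2 fold change −0.50, SE 0.13, adjusted p = 0.00957). Its PA + C3G libraries, at 15.6, 12.5 and 13.9 FPKM, overlapped those of PA (log2 fold change 0.14, SE 0.13, adjusted p = 0.507). Cdkn2c (p18), an inhibitor of CDK4 and CDK6, was at 25.6, 27.4 and 29.9 FPKM with BSA, 12.1, 10.8 and 11.2 with PA and 10.03, 6.52 and 9.62 with PA + C3G. Its fall with PA was called (log2 fold change −1.26, SE 0.148, adjusted p = 7.53e-05), and the lower values with C3G were not (log2 fold change −0.35, SE 0.147, adjusted p = 0.13). Cdkn1c (p57) and the Cdkn2a row were at 0 in 8 of the 9 libraries, with 6 and 4 estimated counts in the other.

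**Figure D4:**
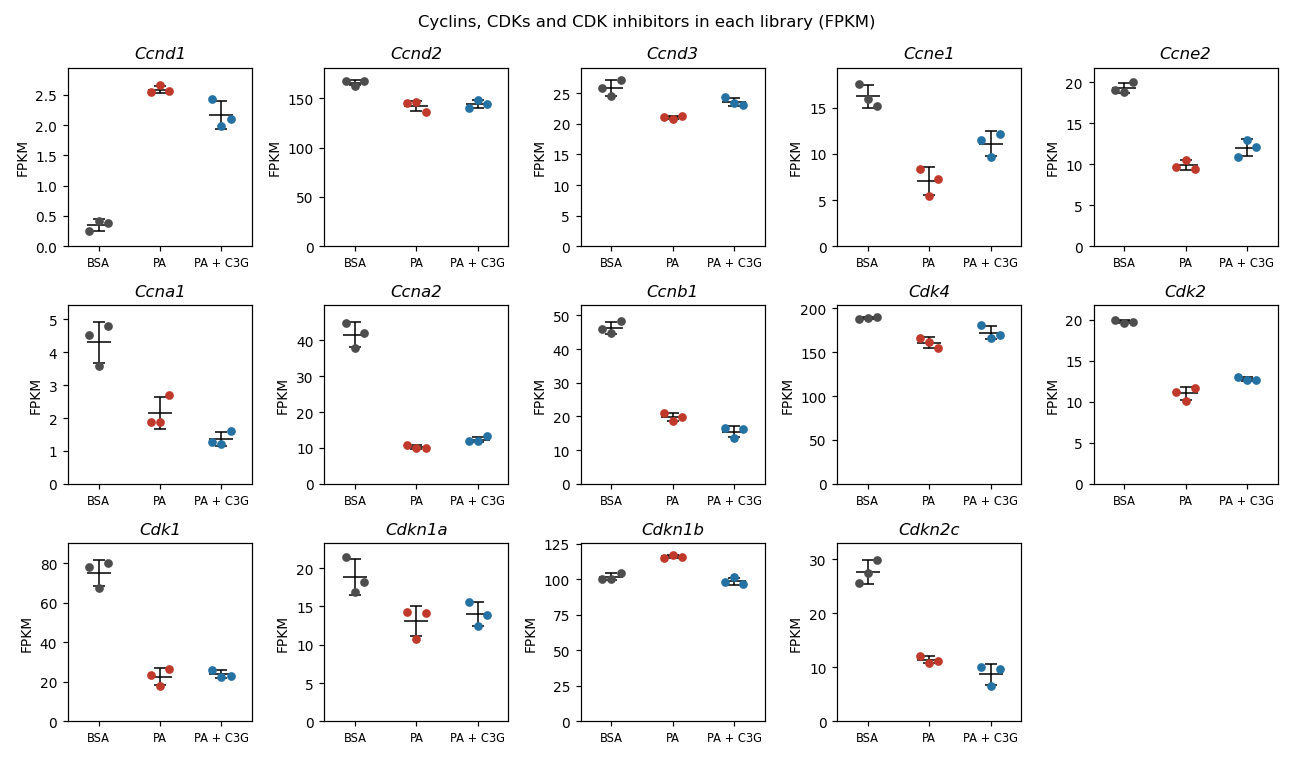
FPKM (y axis, starting at 0) of the tested cyclins, CDKs and CDK inhibitors in each library, by group (x axis), with the mean and SD of 3 libraries in black. Ccnd1 and Cdkn1b were higher with PA than with BSA, and the other 12 genes were lower.

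Of 11 tested genes of the RB and E2F group, 6 fell with PA and none rose, where 25.2% of all tested genes fell and 25.8% rose. Rb1 itself was hardly detected in the table, with 15 estimated counts in BSA replicate 3, 11 in PA replicate 1 and 0 in the other 7 libraries. Its relative Rbl1 (p107), itself an E2F target, went from 9.48, 9.17 and 9.26 FPKM with BSA to 5.07, 4.66 and 5.59 with PA (log2 fold change −0.84, SE 0.0846, adjusted p = 2.61e-05) and 5.33, 5.37 and 6.02 with PA + C3G (log2 fold change 0.16, SE 0.0843, adjusted p = 0.209 against PA). Rbl2 (p130), the family member of resting cells, was at 9.96, 9.89 and 9.17 FPKM with BSA and 10.4, 9.24 and 9.96 with PA, which overlapped (log2 fold change 0.05, SE 0.0554, adjusted p = 0.466). E2f2, an activating E2F, went from 3.21, 2.46 and 3.02 FPKM with BSA to 0.758, 0.801 and 0.566 with PA (log2 fold change −2.0, SE 0.196, adjusted p = 2.18e-05). At 1.06, 0.821 and 0.733 FPKM with PA + C3G it overlapped PA (log2 fold change 0.34, SE 0.191, adjusted p = 0.248). E2f2 passed the expression limit only through the BSA libraries. Among the others, E2f5 fell slightly with PA (log2 fold change −0.33, SE 0.107, adjusted p = 0.0281), a call lost in 5 of 19 alternatives, while E2f3 and E2f4 did not pass the test (log2 fold changes −0.04 and 0.02).

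Hdac1, a histone deacetylase recruited by RB proteins, separated all 3 groups. It was at 123, 119 and 126 FPKM with BSA, 72.8, 75.6 and 71.8 with PA and 94.9, 92 and 90.5 with PA + C3G. The fall with PA (log2 fold change −0.72, SE 0.0393, adjusted p = 4.74e-07) was reduced with C3G (log2 fold change 0.37, SE 0.0392, adjusted p = 3.69e-04), with PA + C3G still below BSA (log2 fold change −0.35, SE 0.0391, adjusted p = 9.53e-05). The row Hdac1l, a near copy, was low at 1.64 to 3.97 FPKM, and the sum of both was 126 ± 3.47 FPKM with BSA, 75.6 ± 2.23 with PA and 95.6 ± 2.31 with PA + C3G (SD, n = 3).

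Outside the KEGG list, 11 further tested genes were examined. They were subunits of the DREAM complex, the FOXM1 and MYB factors that switch the mitotic programme, and E2f6, E2f7 and E2f8. With PA 8 fell and none rose (median log2 fold change −1.07), where 25.2% of all tested genes fell and 25.8% rose (median 0.00). With PA + C3G 4 were higher and none lower than with PA (median 0.12), where 11.1% of all tested genes were higher and 10.2% lower (median −0.00). Mybl2 (B-MYB) went from 24.7, 22 and 24.6 FPKM with BSA to 2.91, 2.19 and 2.08 with PA (log2 fold change −3.28, SE 0.123, adjusted p = 5.76e-08) and 4.73, 5.17 and 5.16 with PA + C3G (log2 fold change 1.10, SE 0.116, adjusted p = 3.64e-04 against PA). For Foxm1 the levels were 29.3, 28.5 and 28.8 FPKM, 6.6, 6.47 and 6.26 and 9.13, 9.4 and 9.58 in the same groups (log2 fold change −2.14, SE 0.0412, adjusted p = 5.41e-09 for PA against BSA, log2 fold change 0.58, SE 0.0402, adjusted p = 4.98e-05 for C3G against PA). The 3 groups of libraries were separate for each of these genes. The repressors E2f7 and E2f8 had the same order of groups, with log2 fold changes of −2.17 and −2.66 with PA (adjusted p = 2.13e-06 and 4.72e-08) and of 0.76 and 0.99 for C3G against PA (adjusted p = 0.00652 and 2.10e-04). All 4 kept these calls in each of the 19 alternative analyses that used the adjusted p. Under the rule of a fold above 2, the calls of Foxm1, E2f7 and E2f8 for C3G against PA were lost. The subunits Lin9, Lin54, Rbbp4 and the factor Mybl1 also fell with PA, and Lin37, Lin52 and E2f6 did not pass the test.

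Origin recognition and firing genes fell in part. Orc6, the smallest subunit of the origin recognition complex, was at 9.68, 8.78 and 10.8 FPKM with BSA, 4.0, 3.3 and 2.76 with PA and 5.14, 5.14 and 5.25 with PA + C3G, without overlap. Its fall with PA (log2 fold change −1.51, SE 0.147, adjusted p = 2.05e-05) was smaller with C3G (log2 fold change 0.66, SE 0.145, adjusted p = 0.0116 against PA). Cdc7, the kinase that fires origins, behaved alike, at 12.1, 12.2 and 13.6 FPKM with BSA, 5.53, 5.18 and 5.29 with PA and 6.53, 6.76 and 6.9 with PA + C3G (log2 fold change −1.22, SE 0.0711, adjusted p = 6.93e-07 for PA against BSA, log2 fold change 0.37, SE 0.0706, adjusted p = 0.006 for C3G against PA). Its activating subunit Dbf4 fell with PA (log2 fold change −0.96, SE 0.168, adjusted p = 0.00101) and its difference with C3G did not pass the test (log2 fold change −0.05, SE 0.167, adjusted p = 0.876). Orc4 fell (log2 fold change −0.69, SE 0.103, adjusted p = 3.63e-04), Orc3 rose slightly (log2 fold change 0.22, SE 0.0566, adjusted p = 0.0101), and Orc2 and Orc5 did not pass the test. Orc1, under the expression limit, had 219, 220 and 304 estimated counts with BSA, 47, 64 and 83 with PA and 103, 106 and 77 with PA + C3G.

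Of 8 tested phosphatases and kinases that set CDK1 activity or exit from mitosis, 4 fell with PA, where 25.2% of all genes did. With C3G 1 was higher and 1 lower than with PA, near the shares of all genes (11.1% and 10.2%). CDC25 phosphatases remove the inhibitory phosphates of CDK1, and Cdc25b and Cdc25c fell (log2 fold change −0.86, SE 0.0876, adjusted p = 2.77e-05, and log2 fold change −1.10, SE 0.113, adjusted p = 3.02e-05), while Cdc25a missed the threshold (log2 fold change −0.12, SE 0.0557, adjusted p = 0.1). Plk1, the polo-like kinase of mitosis, was at 30.9, 29.5 and 33.5 FPKM with BSA, 12.4, 9.06 and 10.5 with PA (log2 fold change −1.53, SE 0.105, adjusted p = 1.97e-06) and 10.5, 10.01 and 11.3 with PA + C3G, overlapping PA (log2 fold change 0.03, SE 0.104, adjusted p = 0.857). Pkmyt1, a kinase that restrains CDK1, was at 19, 18.3 and 18.4 FPKM with BSA, 13.7, 11.9 and 14.3 with PA and 10.4, 11.3 and 10.2 with PA + C3G. It fell with PA (log2 fold change −0.46, SE 0.0693, adjusted p = 3.98e-04) and was lower again with C3G (log2 fold change −0.29, SE 0.0696, adjusted p = 0.0178). The call against PA was lost in 4 of 19 alternatives. The related Wee1 did not pass the test with PA (log2 fold change −0.08, SE 0.0571, adjusted p = 0.276). Cdc14a was called higher with C3G than with PA (log2 fold change 0.37, SE 0.099, adjusted p = 0.0275) and lost that call in 7 alternatives.

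Of 7 genes grouped here under the spindle checkpoint, 6 fell with PA, against 25.2% of all genes. The median log2 fold change of the 7 was −1.67, and most of their products hold anaphase until every chromosome is attached. Mad2l2 did not pass the test (log2 fold change −0.24, SE 0.147, adjusted p = 0.197). The kinase Ttk (MPS1) was at 8.79, 8.15 and 8.14 FPKM with BSA, 1.67, 1.35 and 1.91 with PA and 2.49, 2.51 and 3.02 with PA + C3G, with separate groups. It fell with PA (log2 fold change −2.32, SE 0.133, adjusted p = 6.33e-07) and was higher with C3G than with PA (log2 fold change 0.73, SE 0.129, adjusted p = 0.00424). Bub1b (BUBR1) went from 18.9, 18.6 and 18.8 FPKM with BSA to 5.35, 4.55 and 3.87 with PA and 5.26, 5.35 and 5.56 with PA + C3G (log2 fold change −2.0, SE 0.101, adjusted p = 2.83e-07 for PA against BSA, log2 fold change 0.27, SE 0.0984, adjusted p = 0.0865 for C3G against PA), with overlap between the last pair of groups. Mad2l1 (MAD2), at 44.3, 37.4 and 42.9 FPKM with BSA, 11.9, 12.9 and 11.3 with PA and 15, 14.7 and 13.5 with PA + C3G, fell with PA (log2 fold change −1.76, SE 0.0848, adjusted p = 2.25e-07). Its increase with C3G (log2 fold change 0.30, SE 0.0833, adjusted p = 0.0319) was lost in 7 of 19 alternatives. That of Mad1l1 (log2 fold change 0.34, SE 0.101, adjusted p = 0.0376) was lost in 12 of 19. For both genes these included the other scaling. Bub1 (log2 fold change −1.67, SE 0.0893, adjusted p = 4.07e-07), Mad1l1 (log2 fold change −1.10, SE 0.101, adjusted p = 1.51e-05) and Bub3 (log2 fold change −0.50, SE 0.0464, adjusted p = 1.57e-05) fell with PA as well.

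In the APC/C, the activators fell and the core was mixed. Cdc20, which switches the complex on in mitosis, was at 53.8, 51.3 and 54.3 FPKM with BSA, 23, 21.7 and 23.8 with PA and 21.5, 18.1 and 19.9 with PA + C3G (log2 fold change −1.19, SE 0.0644, adjusted p = 4.26e-07 for PA against BSA, log2 fold change −0.17, SE 0.0641, adjusted p = 0.097 for C3G against PA). All 6 treated libraries lay below all BSA libraries. Fzr1 (CDH1), the G1 activator, also fell (log2 fold change −0.41, SE 0.0798, adjusted p = 0.00188). Of the 14 tested APC/C genes 6 fell with PA and 1 rose, where 25.2% of all tested genes fell and 25.8% rose. Among those that fell was the subunit Cdc27 (log2 fold change −0.45, SE 0.0784, adjusted p = 9.55e-04). The subunits Anapc10, Anapc13 and Cdc26 lost the call of their fall in 5, 4 and 6 alternatives. The gene that rose was Anapc2, the cullin of the complex, at 33, 33.1 and 33.4 FPKM with BSA, 43.9, 44.6 and 45.4 with PA and 36.5, 36.4 and 37.9 with PA + C3G. The groups were separate, the rise with PA (log2 fold change 0.45, SE 0.034, adjusted p = 3.57e-06) being smaller with C3G (log2 fold change −0.24, SE 0.0339, adjusted p = 0.00165 against PA). In the SCF ligase, which degrades p27 through its adaptor SKP2, Skp2 (log2 fold change −0.77, SE 0.13, adjusted p = 8.24e-04) and Skp1 (log2 fold change −0.37, SE 0.0349, adjusted p = 1.64e-05) fell with PA.

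All 7 genes of cohesin, the ring that holds sister chromatids, and of its cleavage fell with PA, where 25.2% of all tested genes did. Espl1, the protease separase that opens the ring, was at 11.3, 9.25 and 10.5 FPKM with BSA, 2.86, 2.41 and 2.27 with PA and 2.55, 2.81 and 2.85 with PA + C3G, where PA and PA + C3G overlapped (log2 fold change −2.02, SE 0.104, adjusted p = 3.20e-07 for PA against BSA, log2 fold change 0.16, SE 0.102, adjusted p = 0.308 for C3G against PA). Its inhibitor securin, from Pttg1, was at 42.2, 41.1 and 43.3 FPKM with BSA, 18.2, 14.1 and 18.1 with PA and 14.8, 14.9 and 13.2 with PA + C3G (log2 fold change −1.30, SE 0.103, adjusted p = 4.93e-06 for PA against BSA, log2 fold change −0.20, SE 0.102, adjusted p = 0.21 for C3G against PA). Its treated libraries, too, were all below the BSA libraries. Rad21, the ring subunit that separase cuts, went from 139.6, 134 and 144 FPKM with BSA to 70.7, 70.1 and 72.1 with PA and 74.8, 72.1 and 73 with PA + C3G, a fall with a narrow error (log2 fold change −0.95, SE 0.0368, adjusted p = 6.74e-08). Smc3 fell with PA (log2 fold change −0.65, SE 0.0444, adjusted p = 1.85e-06) and was slightly higher with C3G (log2 fold change 0.20, SE 0.0443, adjusted p = 0.0121), a call lost under the other scaling. Smc1a, Stag1 and Stag2 fell as well, with log2 fold changes of −0.39, −0.37 and −0.28 (adjusted p = 3.35e-05, 8.91e-04 and 1.05e-04).

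**Figure D5:**
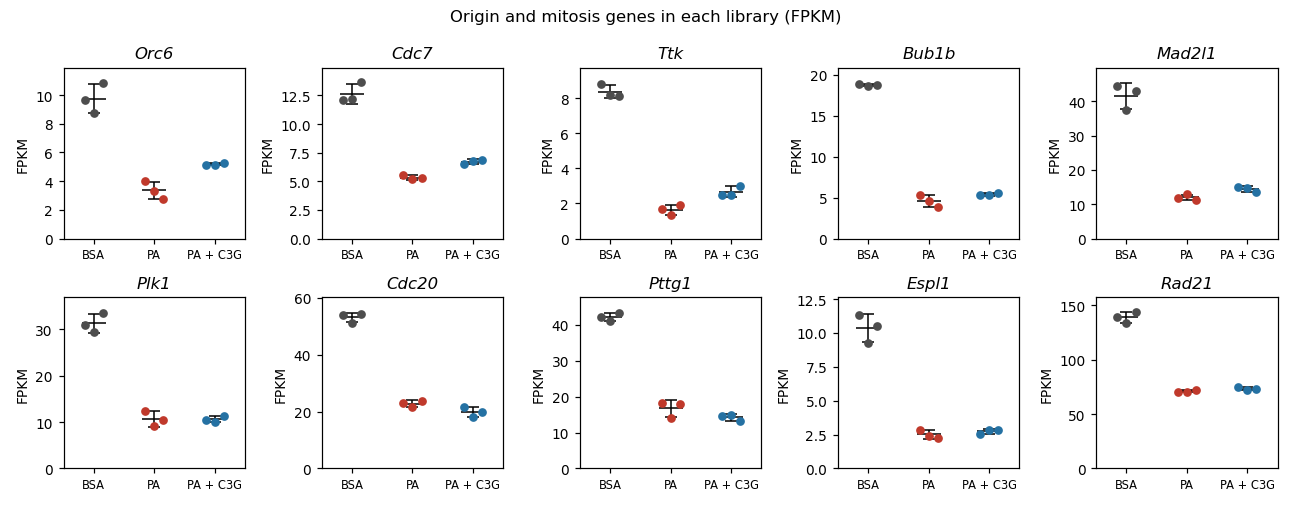
FPKM (y axis, starting at 0) of origin and mitosis genes in each library, by group (x axis), with the mean and SD of 3 libraries in black. All 10 genes were lower with PA than with BSA, and Orc6, Cdc7, Ttk and Mad2l1 were separated upward from PA in the PA + C3G libraries.

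Among the DNA damage checkpoint genes, 10 of 13 fell with PA and none rose, where 25.2% of all tested genes fell and 25.8% rose. These 10 include the 6 tested 14-3-3 genes described below. Mdm2, an E3 ubiquitin ligase, was at 31.5, 31.1 and 33.2 FPKM with BSA and 33.3, 32.7 and 32.2 with PA, which overlapped (log2 fold change 0.06, SE 0.0451, adjusted p = 0.303). Chek2, a kinase activated by DNA breaks, fell from 10.2, 10.3 and 11.1 FPKM to 5.04, 4.07 and 4.89 with PA (log2 fold change −1.15, SE 0.139, adjusted p = 8.75e-05) and was at 4.16, 3.14 and 4.48 FPKM with PA + C3G (log2 fold change −0.21, SE 0.138, adjusted p = 0.321 against PA). Gadd45a, a stress gene, did not pass with PA (log2 fold change −0.17, SE 0.0747, adjusted p = 0.0899) and was lower with C3G than with PA (log2 fold change −0.25, SE 0.075, adjusted p = 0.0418), a call lost in 7 alternatives. The 6 tested 14-3-3 genes (Ywha), adaptors that hold CDC25 in the cytoplasm, all fell with PA, with log2 fold changes of −0.65 to −0.24. The call of Ywhag (adjusted p = 0.0336) was lost when any 1 of the 6 BSA and PA libraries was left out. With C3G 4 of the 6 were higher than with PA, where 11.1% of all tested genes were. Of these 4, Ywhab (log2 fold change 0.31, SE 0.057, adjusted p = 0.00539) also passed under the other scaling.

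Of 22 further cyclins, CDKs and their partners outside the KEGG list, 8 fell and 4 rose with PA (median log2 fold change −0.11), and 3 were higher and 3 lower with C3G than with PA (median −0.05). Of all tested genes 25.2% fell and 25.8% rose with PA, and 11.1% were higher and 10.2% lower with C3G than with PA, so that the shares with C3G were near those of all genes. The CDK phosphatase Cdkn3 (log2 fold change −1.62, SE 0.119, adjusted p = 3.03e-06), cyclin F from Ccnf (log2 fold change −1.48, SE 0.138, adjusted p = 1.57e-05) and the CDK subunit Cks2 (log2 fold change −1.23, SE 0.0781, adjusted p = 1.17e-06) had the largest falls. Cks1b, the cofactor with which SKP2 recognises p27, was at 19.7, 17.2 and 21.6 FPKM with BSA, 18, 17.4 and 19.5 with PA and 12.5, 12.8 and 13.2 with PA + C3G. BSA and PA overlapped, and the C3G libraries lay below both (log2 fold change −0.47, SE 0.0872, adjusted p = 0.00541 against PA). Of the transcriptional CDKs, Cdk19 fell with PA (−0.55 on the log2 scale, adjusted p = 1.41e-05) and again with C3G (−0.29, adjusted p = 0.00406). Cdk9, which releases paused RNA polymerase, fell with PA (−0.34 on the log2 scale, adjusted p = 1.87e-05) and was higher with C3G than with PA (0.25, adjusted p = 8.73e-04).

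Some rows are of uncertain identity. The row named Necab3 was annotated in the table with the cell cycle pathway and held 3 transcripts, and in RefSeq the neighbouring gene E2f1 lies 140 bases from Necab3. It was at 17.1, 16.2 and 17.1 FPKM with BSA, 5.44, 5.84 and 5.0 with PA and 10.2, 9.79 and 9.89 with PA + C3G, with separate groups (log2 fold change −1.61, SE 0.0614, adjusted p = 6.14e-08 for PA against BSA, log2 fold change 0.91, SE 0.0608, adjusted p = 3.95e-05 for C3G against PA). The row named Stt3a held 4 transcripts and was described in the table as checkpoint kinase 1, and in RefSeq Chek1 lies 2605 bases from Stt3a. It rose from 40.9, 38.1 and 40.9 FPKM with BSA to 64.2, 62 and 65.6 with PA (log2 fold change 0.70, SE 0.0424, adjusted p = 8.76e-07) and stayed at 63.1, 58.6 and 61.4 with PA + C3G (log2 fold change −0.03, SE 0.0421, adjusted p = 0.682 against PA). E2f1 and Chek1 by themselves were not analysed here. AABR07000658, a cyclin B2-like pseudogene, fell with PA (log2 fold change −1.0, SE 0.12, adjusted p = 8.58e-05) and can share reads with its parent gene. The 10 regulators under the expression limit, none of them tested, were Ccnb3, LOC298795, Orc1, Cdk6, Tgfb3, Rb1, Wee2, Sfn, Cdkn1c and Cdkn2a. Of these, Tgfb3 had 79, 81 and 83 estimated counts with BSA, 4, 16 and 0 with PA and 7, 34 and 0 with PA + C3G.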

How the data were processed

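INS-1E libraries were made by the authors from poly(A) RNA and sequenced in paired-end, strand-specific mode. The labels name cutadapt 1.9, HISAT2 2.0.4, StringTie 1.3.4d, DESeq2 and edgeR; the genome build is not given in the sources used here. The authors deposited estimated counts per gene, not normalized, and FPKM. Low counts pile up at multiples of 4 (values of 4 were 2.44 times the mean of values of 3 and 5), so independent fragments are fewer than the totals, and dividing by 4 was an alternative.

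Groups came from the labels, whose titles name only C3G for the PA + C3G group. The PA of that group and the doses came from the methods. The 12958 genes whose FPKM averaged 1 or more over 9 libraries were tested on the counts by edgeR 4.0.16 in R 4.3.3 (TMM, quasi-likelihood, group only, all 9 libraries), with Benjamini-Hochberg adjustment, calls at adjusted p under 0.05 and SE = |log2 fold change| / √F. The code was tested on simulated data. Alternatives were DESeq2 1.42.0 and its size factors, equal FPKM sums, no filter, a stricter filter (average FPKM of 5), counts divided by 4, limma 3.58.1 on log2(FPKM + 1) and log2(FPKM + 0.1), the compared groups only, a replicate block, 1 library left out, and, as another rule for calls, a fold above 2.

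The regulators and lists were chosen with earlier results of these data known. Named were the cyclins, CDKs and inhibitors, Rb1, Rbl1, Rbl2, Mdm2, and per role, list and comparison up to 4 called genes with separate groups and the largest change. Other genes named, the 5 promoters and the Ccnb1 ratios were chosen after their values were seen. Values per gene could not be split between overlapping genes or near copies. Results for 1 named gene and for 1 list are not reported here.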

Additional observations from a re-analysis of the deposited data

How the results depend on the processing

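Counts of calls and medians were recomputed under each alternative. A fold change above 2 with an unadjusted p under 0.05 gave 23 called regulators in place of 70 for PA against BSA, 20 in place of 66 for PA + C3G against BSA, and 1 in place of 27 (Tgfb2) for C3G against PA, by the construction of that rule. With equal FPKM sums the median log2 fold change of the regulators was −0.37 for PA against BSA, −0.0463 for C3G against PA and −0.35 for PA + C3G against BSA, where the medians of all genes were 0.03, −0.09 and −0.06. For C3G against PA, whose median was 0.04, no filter gave 0.0487, a minimum average FPKM of 5 gave 0.0386, and limma gave 0.00651 with a pseudocount of 1 and 0.00706 with 0.1. Limma gave −0.42 with a pseudocount of 0.1 for PA against BSA, and −0.33 and −0.34 with pseudocounts of 1 and 0.1 for PA + C3G against BSA. The cause of these shifts was not tested.

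Leaving out 1 library at a time, called regulators ranged from 61 to 70 for PA against BSA, from 15 (without PA replicate 3) to 29 for C3G against PA and from 58 to 67 for PA + C3G against BSA. The medians ranged from −0.40 to −0.35, from 0.0339 to 0.0656 and from −0.31 to −0.27. Apart from the rule of a fold above 2, calls made in every alternative were 54 of 63 lower and 6 of 7 higher for PA against BSA, 8 of 19 higher and 3 of 8 lower (Myc, Anapc2 and Cdkn1b) for C3G against PA, and 50 of 60 lower and 5 of 6 higher for PA + C3G against BSA. No called regulator changed sign with equal FPKM sums.

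Over all tested genes, the deviations of same-numbered libraries from their group means were hardly correlated (−0.09 to 0.08). Such a correlation cannot show whether single genes follow the replicate number, and the labels do not say whether same-numbered libraries are pairs. With the replicate block, called regulators numbered 70, 31 and 65 in the 3 comparisons, with Abl1, Anapc13 and Cdc26 losing their calls for PA against BSA, Orc3 and Mad1l1 for C3G against PA, and Cdc25a and Gadd45g for PA + C3G against BSA. Of the 10 regulators under the expression filter, 5 had 30 estimated counts or fewer in all 9 libraries together.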
